A study of Mus musculus with 7 samples.

Results

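Airn is the long antisense RNA of the imprinted Igf2r cluster on mouse chromosome 17, described here as it was recovered by RNA immunoprecipitation with an EZH2 antibody (RIP-seq) from embryonic stem cells. Its members are the intervals, called features here, that overlap the annotated gene (ENSMUSG00000078247.4, mm10 chr17:12741311-12860136, + strand) on its own strand. There were 33 such features among the 303889 features of the deposited count table. All 33 lay wholly inside the gene, and together they covered 35.2 kb, or 29.6%, of its 118.8 kb. They are numbered 1 to 33 from the 5′ end.

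Airn is transcribed from a promoter inside an intron of Igf2r, runs across the Igf2r promoter in the opposite direction and continues past it. It is expressed from the paternal chromosome in many tissues, where it silences Igf2r (the receptor that takes up and degrades insulin-like growth factor 2) and, in the placenta, more distant genes of the cluster. Most of the RNA is unspliced, nuclear and short-lived, and repressive Polycomb marks over the cluster have been linked to it in extraembryonic cells. EZH2 is the histone methyltransferase of Polycomb repressive complex 2, and SAFB and SAFB2 are nuclear proteins that bind RNA and chromatin. The series is titled for this antibody's cross-reaction with SAFB.

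All libraries came from a male CAST/B6 embryonic stem cell line with a recombination cassette at Rosa26, grown in 15% serum at 37 °C and 5% CO2 and treated with doxycycline for 3 days; the labels do not state what the doxycycline induced. Wild type (WT, n = 3) was the parental line and clones 20 and 44, the Ezh2 knockout (EZH2 KO, n = 2) was clones 12 and 19, and the knockout of both Safb and Safb2 (SAFB DKO, n = 2) was clones 13 and 4. Both SAFB DKO labels carry the number 1, so these clones are numbered here in their listed order. The p-values below therefore measure the spread between clones. Reads of the CAST and B6 alleles were not separated in the deposited counts, so no value below is allele-specific.

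Total counts were 19024702 to 21832539 in WT, 15812517 to 18738499 in SAFB DKO and 7050832 to 8353603 in EZH2 KO. The EZH2 KO columns follow another naming pattern than the rest, while the labels name no sequencing run. A possible batch of these libraries and the genotype cannot be told apart in comparisons with EZH2 KO. Ezh2 had 15 and 1 counts in EZH2 KO and 3167 to 4285 in WT. Safb had 31 and 11 counts in SAFB DKO against 2247 to 5202 in WT, and Safb2 had 64 and 15 against 2380 to 6420. WT replicate 3 had the lowest level of both genes in WT, 117 CPM of Safb and 124 CPM of Safb2 (CPM being counts scaled to a common library total), against 239 and 289 CPM in WT replicate 1. In EZH2 KO both genes lay above every WT library. Safb had 284 and 314 CPM there (log2 fold change 0.58, edgeR quasi-likelihood test, adjusted p = 0.077). Safb2 had 615 and 749 CPM (1.52, adjusted p = 0.0019). Both genes thus had the groups in the order that Airn has below, and their part in the Airn result was not tested. Of 10 embryonic stem cell markers, 9 had counts, and their summed level was 1256 to 1365 CPM in WT, 1165 to 1319 in EZH2 KO and 1746 to 1774 in SAFB DKO. Sox2 had none because its features also overlap another gene and were left out of gene sums. Markers of feeder fibroblasts (4 of 6 with counts, Col1a2 and Postn without) summed to at most 10.5 CPM in any library. Here and below, a marker without counts can be a gene with no feature of its own, so absence of its RNA is not shown.

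The start of the RNA and the promoter it crosses are shown first, because the features begin just after the former and cover part of the latter. Both windows hold 300 bases and come from RefSeq on GRCm38.p6, the assembly also called mm10. The Airn window is chr17:12741061-12741360 on the + strand, with the 50 transcribed bases in capitals. The Igf2r window is chr17:12769657-12769956 on the - strand, with capitals for the 115 bases (chr17:12769842-12769956) that Airn feature 12 covers on the opposite strand.
Airn promoter: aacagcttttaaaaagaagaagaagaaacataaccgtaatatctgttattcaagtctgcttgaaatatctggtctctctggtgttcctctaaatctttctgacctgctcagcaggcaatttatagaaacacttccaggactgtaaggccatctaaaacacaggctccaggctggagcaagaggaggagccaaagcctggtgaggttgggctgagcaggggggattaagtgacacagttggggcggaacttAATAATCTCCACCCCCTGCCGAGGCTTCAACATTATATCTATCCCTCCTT
Igf2r promoter: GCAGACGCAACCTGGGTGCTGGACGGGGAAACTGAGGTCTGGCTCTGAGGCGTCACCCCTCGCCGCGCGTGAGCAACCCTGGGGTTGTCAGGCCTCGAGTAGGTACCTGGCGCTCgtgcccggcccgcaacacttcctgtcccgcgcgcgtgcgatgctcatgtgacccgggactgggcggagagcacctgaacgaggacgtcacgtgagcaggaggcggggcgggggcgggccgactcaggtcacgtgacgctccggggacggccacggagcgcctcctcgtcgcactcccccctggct

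Few of the features held annotated exon sequence. GENCODE M21 lists 15 different exons in 6 Airn transcripts, and 4 of them touched features, all in features 15 and 24. The exons lying whole inside a feature were 1 of Airn-203 (chr17:12779290-12779512, feature 15) and 1 of Airn-205 (chr17:12815931-12816794, feature 24, first 300 bases printed), both on the + strand. They are shown because they are the annotated exons that lie whole inside a member. Capitals mark matches to GAAGA or AAGAA, overlapping purine-rich motifs that have been described for SAFB proteins.
Airn-203 exon: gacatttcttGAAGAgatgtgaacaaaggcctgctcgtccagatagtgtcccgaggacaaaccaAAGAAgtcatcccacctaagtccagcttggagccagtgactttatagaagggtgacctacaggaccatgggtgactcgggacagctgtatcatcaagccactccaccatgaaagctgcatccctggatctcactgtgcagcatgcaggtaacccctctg
Airn-205 exon: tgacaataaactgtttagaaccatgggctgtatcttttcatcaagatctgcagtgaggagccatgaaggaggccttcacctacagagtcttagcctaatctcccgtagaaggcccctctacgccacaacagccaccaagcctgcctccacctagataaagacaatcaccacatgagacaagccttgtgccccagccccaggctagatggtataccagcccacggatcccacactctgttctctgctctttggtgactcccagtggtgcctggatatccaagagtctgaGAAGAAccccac
Each stretch held 1 match to GAAGA and 1 to AAGAA on the transcribed strand. Among the first 223 bases of all M21 exons at least that long, 42.0% held GAAGA and 37.3% AAGAA, and among first stretches of 300 bases 50.02% and 45.48% did. In the promoter windows, searched on both strands, Airn held 3 matches to GAAGA and 4 to AAGAA, all on the transcribed strand in a single run before the start, and Igf2r held none of either. Of 32817 promoter windows of the same length, 56.5% held GAAGA and 54.9% AAGAA on either strand. A match is a description of letters and not of binding.

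Precipitated Airn was lower in both SAFB DKO clones than in any WT library and higher in both EZH2 KO clones. Summed over the 33 features, Airn had 297, 284 and 221 CPM in WT replicates 1 to 3. It had 1036 and 1124 CPM in EZH2 KO and 22.0 and 24.5 CPM in SAFB DKO. No group overlapped another, and the EZH2 KO libraries reached these levels with 6888 and 7147 Airn counts at less than the total depth of WT, where Airn had 4242 to 6456. SAFB DKO had 482 and 456 counts of Airn. As shares of all counts, without the TMM factors, Airn took 0.0269% ± 0.00397 (SD, n = 3) in WT, 0.0916% ± 0.00858 (n = 2) in EZH2 KO and 0.00273% ± 0.000220 (n = 2) in SAFB DKO.

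From WT to SAFB DKO, Airn fell by 3.52 on the log2 scale (SE 0.17, edgeR quasi-likelihood test, adjusted p = 9.5e-08), from 268 ± 40.4 to 23.3 ± 1.80 CPM (SD). The size of the fall depended on which features were summed: it was 2.82 (log2 fold change -2.82) over the features in neither deposited peak list and 4.25 (-4.25) over those in the filtered list. The lists were drawn from features called on the WT precipitates, and how they were drawn was not examined here. The larger fall over listed features is therefore given as a description with no test. From WT to EZH2 KO, Airn rose by 2.01 (SE 0.14, adjusted p = 2.8e-06), to 1080 ± 62.5 CPM. SAFB DKO was below EZH2 KO by a log2 fold change of -5.54 (SE 0.19, adjusted p = 2.6e-09), and the same fit thereby tests how far the knockout effects lay apart. These comparisons share the WT libraries. WT replicate 3, the lowest of the WT libraries in Safb and Safb2, was also the lowest in Airn, and without it the log2 fold changes were -3.66 in SAFB DKO (adjusted p = 6.3e-07) and 1.89 in EZH2 KO (adjusted p = 9.1e-05). Trophoblast markers (3 of 4 with counts, Elf5 without) had the groups in the same order as Airn. Their summed levels were 11.8 to 14.7 CPM in WT, 18.04 to 27.99 in EZH2 KO and 5.52 to 6.62 in SAFB DKO. Neural markers (2 of 4 with counts, Sox1 and Tubb3 without) summed to 173 to 249 CPM in WT, 103 to 120 in EZH2 KO and 69.96 to 71.30 in SAFB DKO. Endoderm markers (2 of 5 with counts, Afp, Foxa2 and Sox17 without) summed to at most 3.91 CPM. The part of these markers in the Airn result was not tested. In bulk precipitates, fewer cells with the RNA, less RNA per cell and less recovery of the same RNA cannot be told apart, and control-antibody precipitates were not analysed here.

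**Figure D1:**
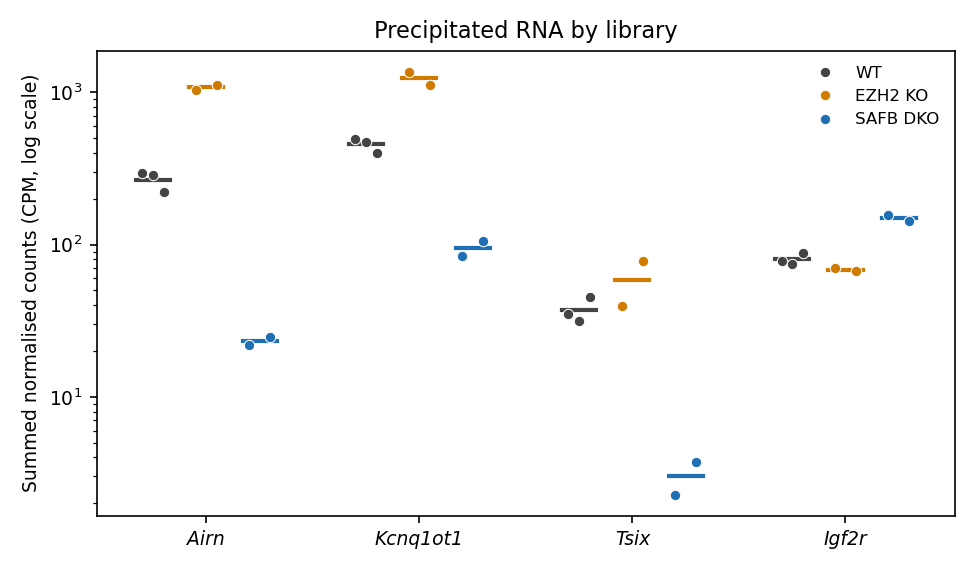
Summed normalised counts (CPM, log scale) of Airn, Kcnq1ot1, Tsix and Igf2r; each point is a library and each line a group mean. Airn lies at 22.0 and 24.5 CPM in SAFB DKO, 221 to 297 in WT and 1036 to 1124 in EZH2 KO, while Igf2r is highest in SAFB DKO.

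Kcnq1ot1 and Tsix, both noncoding antisense RNAs that act in cis on their own chromosome, were set beside Airn. Kcnq1ot1, which silences genes of the Kcnq1 cluster, had 491, 475 and 402 CPM in WT, compared with 1363 and 1116 in both EZH2 KO clones and 83.6 and 106 in SAFB DKO. It fell from WT to SAFB DKO by 2.27 (log2 fold change -2.27, SE 0.16, adjusted p = 2.8e-07) and rose in EZH2 KO by 1.44 (SE 0.14, adjusted p = 1.5e-05). Tsix, which opposes Xist, was summed over 2 features only, against 33 each for Airn and Kcnq1ot1. It had 35.2, 31.3 and 45.1 CPM in WT and 2.28 and 3.71 in SAFB DKO, a log2 fold change of -3.64 (adjusted p = 1.5e-06). In EZH2 KO its clones lay far apart, at 39.4 and 78.3 CPM, and its log2 fold change of 0.66 (adjusted p = 0.049) was 0.08 (adjusted p = 0.79) without EZH2 KO replicate 2. In all, 6 alternatives lost the call. Among them were the fits without WT replicate 1 (adjusted p = 0.12) or WT replicate 2 (0.16) and 2 other scalings (0.10 and 0.16).

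Both changes of Airn were larger in size than those of Kcnq1ot1, which was compared within libraries. The log2 ratio of Airn to Kcnq1ot1 counts was -0.73, -0.74 and -0.86 in the WT libraries, -0.40 and 0.01 in EZH2 KO, against -1.93 and -2.11 in SAFB DKO, with no overlap between groups. The mean ratio differed by -1.24 between SAFB DKO and WT and by 0.58 between EZH2 KO and WT, the latter being 0.38 without EZH2 KO replicate 2. An exact two-sided permutation test gave p = 0.10 for each, the smallest p that 3 against 2 libraries allow, and 0.15 after adjustment over the 6 ratio comparisons. Such a ratio does not depend on the scaling between libraries and shows unequal change only. Between SAFB DKO and EZH2 KO it differed by -1.82, where the smallest possible exact permutation p is 0.33.

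Of 11 cis-acting or imprinted noncoding RNAs listed for comparison, Airn among them, 9 were tested. In SAFB DKO 7 fell and 2 had no call, at a median log2 fold change of -0.73, where 34.6% of all 16710 genes tested fell, 15.3% rose and the median was -0.23. In EZH2 KO 3 fell and 3 rose, at a median of 0.16, where 22.5% of all genes fell, 25.3% rose and the median was 0.02. The list was drawn up with earlier results of these data known.

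Along the RNA, nearly every testable feature followed the sum. A filter on low counts left 31 of the 33 features, and those removed were features 29 and 32, of 80 and 76 bases. In SAFB DKO against WT, 27 of the 31 fell and 0 rose, where 17.4% of all 192964 features tested fell and 2.26% rose. The median log2 fold change of the 31 was -3.35, against -0.17 over all features. None of the 31 had a log2 fold change above 0, and DESeq2 called the same numbers, 27 and 0. The 4 without a call (features 5, 16, 17 and 18) had at most 0.792 CPM in WT, below the 1.08 CPM or more of every feature that was called. All 3 WT libraries lay above both SAFB DKO libraries in 29 of the 33 features, where the groups separated this way in 35.8% of all 303889 features.

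In EZH2 KO against WT, 23 of the 31 features rose and 0 fell, where 7.5% of all features rose and 8.07% fell. Their median was 1.81, against -0.21 over all features. DESeq2 called 22 and 0. Feature 16 was the tested member with a log2 fold change below 0: it had 9, 14 and 5 counts in WT, compared with 1 and 0 in both EZH2 KO clones and 1 and 9 in SAFB DKO, and it was not called in any comparison. In SAFB DKO against EZH2 KO, 30 of the 31 fell and 0 rose, where 23.3% of all features fell and 16.6% rose, and the median was -5.30.

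**Figure D2:**
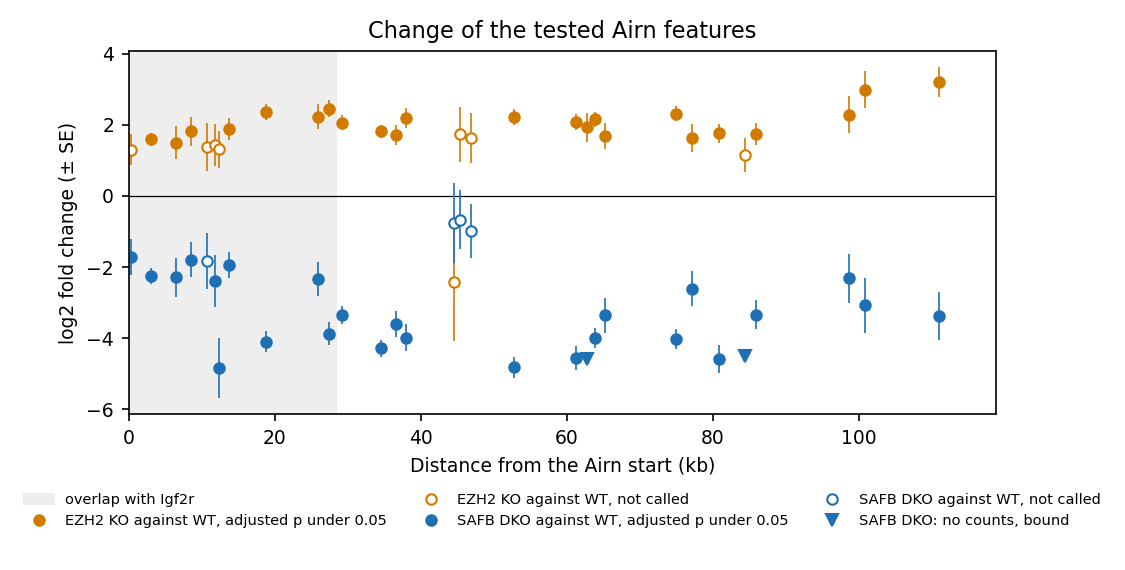
Log2 fold change (± SE) of the 31 tested Airn features in each knockout against WT, by distance from the Airn start (kb); filled points passed adjusted p under 0.05, and triangles are bounds for features without counts in SAFB DKO. EZH2 KO points lie above 0 except feature 16, SAFB DKO points below 0, and the falls near the start are smaller than most further on.

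The 6 features with the highest mean level were numbers 13, 19, 24, 2, 20 and 9. Feature 13 (chr17:12774771-12777059, intronic, beyond the Igf2r promoter) carried the most counts: 58.8, 52.8 and 38.5 CPM in the WT libraries, 156 and 196 in EZH2 KO, against 2.60 and 2.53 in SAFB DKO. Its log2 fold change was -4.28 (SE 0.24, adjusted p = 7.6e-09) in SAFB DKO and 1.82 (SE 0.19, adjusted p = 2.4e-05) in EZH2 KO. Per kb of feature it also had the highest level of all members in WT, 21.9 CPM per kb, where the median member had 5.67.

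Feature 19 (chr17:12792541-12795595, intronic) had 34.1, 36.6 and 23.2 CPM in WT, compared with 142 and 149 in both EZH2 KO clones and 1.41 and 0.753 in SAFB DKO. Its log2 fold change of -4.82 (SE 0.30, adjusted p = 1.2e-08) in SAFB DKO was the lowest among the 6. Feature 20 (chr17:12801711-12803521, intronic) stood at 17.7, 17.6 and 16.3 CPM in the WT libraries, 70.4 and 75.6 in EZH2 KO, against 0.365 and 1.13 in SAFB DKO. The groups did not overlap in either feature.

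Feature 24 (chr17:12814589-12817828), the longer of the 2 that reach annotated exons, had 20.0, 21.8 and 14.6 CPM in WT, compared with 92.9 and 93.1 in both EZH2 KO clones and 0.867 and 1.45 in SAFB DKO. It fell in SAFB DKO (-4.03, SE 0.29, adjusted p = 3.8e-08) and rose in EZH2 KO (2.30, SE 0.21, adjusted p = 1.3e-05). Feature 15, which holds the Airn-203 exon, fell as well (-3.99, SE 0.39, adjusted p = 9.1e-07). The 29 tested features without an annotated Airn exon had a median of -3.34 for SAFB DKO and of 1.76 for EZH2 KO, so exonic and intronic intervals moved in the same directions; their difference was not tested.

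Feature 2 (chr17:12742093-12746571) is the longest member, 4479 bases, and starts 782 bases after the Airn start. It had 23.1, 23.3 and 20.6 CPM in the WT libraries, 64.5 and 69.8 in EZH2 KO, against 5.47 and 3.93 in SAFB DKO. Its fall in SAFB DKO was the smallest among the 6 (-2.24, SE 0.22, adjusted p = 1.1e-06), and SAFB DKO had 120 and 73 counts in it, against 57 and 47 in the shorter feature 13. Feature 9 (chr17:12759178-12761170), further into the Igf2r overlap, had 17.5, 14.1 and 11.7 CPM in WT, compared with 84.6 and 63.4 in both EZH2 KO clones and 0.867 and 0.807 in SAFB DKO. Its log2 fold changes were -4.10 (SE 0.29, adjusted p = 4.4e-08) and 2.36 (SE 0.21, adjusted p = 1.1e-05).

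The first and the last feature follow. Feature 1 (chr17:12741502-12741762) begins 191 bases after the start and had 3.17, 2.16 and 1.31 CPM in the WT libraries, 5.41 and 5.50 in EZH2 KO, against 0.547 and 0.807 in SAFB DKO. It fell in SAFB DKO (-1.71, SE 0.50, adjusted p = 0.021), a call lost without WT replicate 1 (adjusted p = 0.15), WT replicate 2 (0.070), SAFB DKO replicate 1 (0.16) or SAFB DKO replicate 2 (0.054). Per kb of feature its WT level was 8.48 CPM, above that of the median member, while the last feature had 0.827 CPM per kb. Feature 33 (chr17:12851564-12852881), the last, had 1.47, 1.22 and 0.574 CPM in WT, compared with 10.2 and 10.1 in both EZH2 KO clones and 0.0912 and 0.108 in SAFB DKO. Its rise in EZH2 KO, 3.20 (SE 0.41, adjusted p = 1.2e-04), had the highest log2 fold change of all members.

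The extremes in SAFB DKO were features of few counts. Feature 21 (chr17:12803923-12804146) had 39, 44 and 29 counts in WT and 0 in both SAFB DKO libraries, and was at least 24.2-fold lower there, with 3 counts over the group as the floor. Feature 27 (chr17:12825613-12825901) also had 0 counts in SAFB DKO and was at least 22.5-fold lower. Among tested features the smallest log2 fold change in size was that of feature 17 (chr17:12786526-12786737), with 0.735, 0.800 and 0.104 CPM in WT and 0.365 and 0.323 in SAFB DKO, where the groups overlapped and the log2 fold change of -0.67 was not called (adjusted p = 0.68). Feature 32, which was not tested, had 5, 3 and 4 counts in WT and 5 in each SAFB DKO library.

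**Figure D3:**
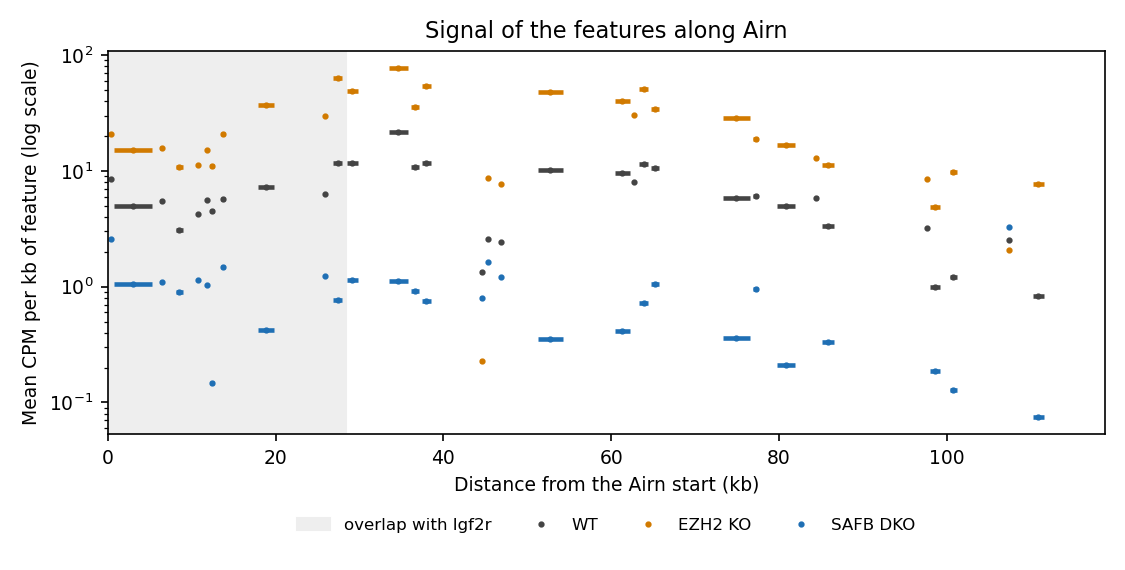
Mean CPM per kb of each Airn feature (log scale) against its distance from the Airn start (kb), by group; bars span the features and the grey area is the overlap with Igf2r. WT and EZH2 KO are highest at feature 13, with 21.9 CPM per kb in WT, whereas SAFB DKO stands at 1.12 CPM per kb there; features 21, 27 and 29 had no SAFB DKO counts and have no blue point.

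The ratio of WT to SAFB DKO varied along Airn. In 10 kb steps from the start, the summed level in WT was 29.3 ± 3.16 CPM in the first step (4 features) and 6.59 ± 0.419 CPM in SAFB DKO, a 4.45-fold lower mean. From 30 to 40 kb WT had 72.3 ± 15.4 CPM and SAFB DKO 4.21 ± 1.05, a 17.2-fold lower mean. From 50 to 60 kb, where feature 19 lies alone, the mean was 28.9-fold lower. The ratio was not lowest at the start: it was 1.76-fold from 40 to 50 kb (features 16, 17 and 18, with 14 to 47 counts per WT library) and 3.51-fold from 100 to 110 kb (17 to 32 counts). From 90 to 100 kb it was 6.56-fold (20 to 40 counts). In EZH2 KO the same steps were higher than WT by between 2.40-fold (40 to 50 kb) and 9.31-fold (110 to 120 kb, feature 33 alone), with 3.00-fold in the first step.

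In both SAFB DKO libraries a higher share of the Airn counts lay near the start. The first 10 kb held 10.8%, 10.5% and 11.7% of the Airn counts in the WT libraries, 8.20% and 8.12% in EZH2 KO, against 31.3% and 25.7% in SAFB DKO, a measure added after the steps had been seen. The stretch that overlaps Igf2r (the first 28.4 kb, 11 features) held 24.1%, 23.3% and 25.1% in WT and 25.2% and 22.6% in EZH2 KO. In SAFB DKO it held 48.3% (exact Clopper-Pearson 95% interval 43.8 to 52.9, 233 of 482 counts) and 37.3% (32.8 to 41.9, 170 of 456). Both shares in SAFB DKO were above every WT and EZH2 KO library, and their intervals cover counting error only. The mean share differed by 18.7 percentage points from WT (exact two-sided permutation test, p = 0.10, adjusted over 15 share comparisons 0.19). Between EZH2 KO and WT the shares overlapped and differed by -0.25 points (exact permutation p = 0.90).

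The authors' peak lists also split the members. Of the 33 features, 10 were in the short list, 4 more in the longer filtered list and 19 in neither. Short-list features held 59.7%, 59.9% and 60.1% of Airn counts in WT, compared with 60.6% and 63.3% in both EZH2 KO clones and 34.0% and 35.1% in SAFB DKO. All 10 short-list features fell in SAFB DKO, by a median log2 fold change of -4.42 (-4.39 with the features without counts at their bound), and 13 of the 17 tested unlisted features fell, at a median of -2.29. Of all features tested, listed or not, 17.4% fell in SAFB DKO. Because the lists were drawn from features called on the WT precipitates, they give no separate support for a lower share or level than in WT. These values are a description with no test. Feature 13 alone held 19.8%, 18.6% and 17.4% of Airn counts in the WT libraries, 15.1% and 17.4% in EZH2 KO, against 11.8% and 10.3% in SAFB DKO.

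**Figure D4:**
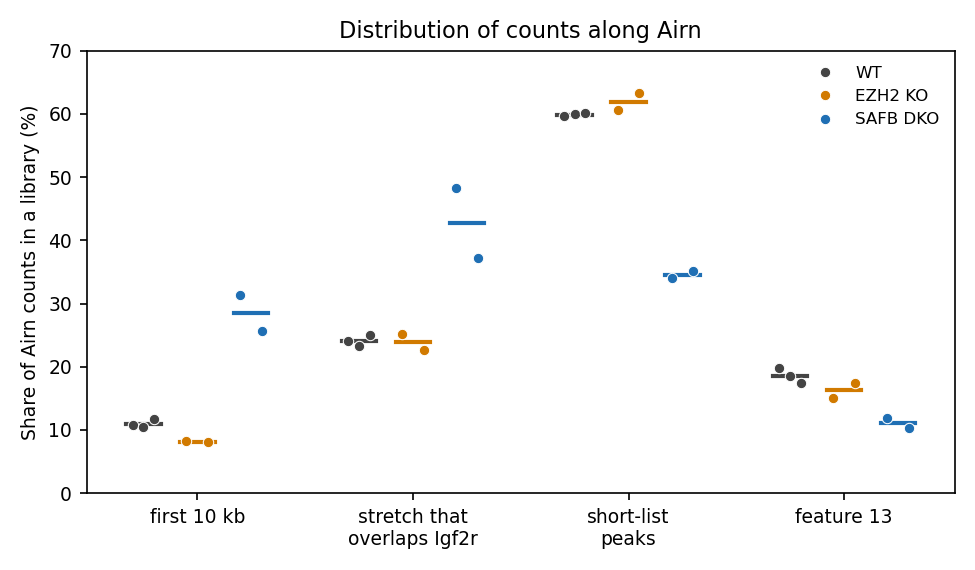
Share of the Airn counts of a library (%) in the first 10 kb, in the stretch that overlaps Igf2r, in short-list peaks and in feature 13; points are libraries and lines group means. SAFB DKO lies above WT and EZH2 KO in both stretches near the start (48.3% and 37.3% in the overlap) and below them in short-list peaks (34.0% and 35.1%).

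Level and length moved with these differences between features. Over the 31 tested features, which share libraries and a transcript, the log2 fold change in SAFB DKO had Spearman's rho -0.36 (Pearson's r -0.33) with distance from the start, -0.49 (-0.40) with WT level per kb and -0.43 (-0.21) with length. WT counts enter both the fold change and the WT level per kb, so part of the correlation with level may be built in. The unlisted features overlapping Igf2r (9, median -2.24) and those beyond it (8 tested, median -2.98) had medians in the same order, a difference not tested. The part that level, length or residual counts from other RNA of the region take in the uneven fall was not tested. No + strand feature lay in the 50 kb before the Airn start or in the 50 kb after its end. The features were called on pooled WT precipitates and reads outside them were not counted. Where the signal itself ends is therefore not shown.

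Igf2r, the gene that Airn silences in cis in many tissues (not tested in these cells), was covered by 53 features of its own on the - strand. They summed to 78.2, 74.7 and 88.2 CPM in WT, compared with 69.8 and 67.3 in both EZH2 KO clones and 157 and 142 in SAFB DKO. Igf2r rose in SAFB DKO (0.90, SE 0.13, adjusted p = 8.0e-05), with both libraries above all others. In EZH2 KO its log2 fold change was -0.23 (adjusted p = 0.18), but -0.47 (adjusted p = 0.0093) when libraries were scaled by their totals and -0.36 (adjusted p = 0.037) with factors from all features. The values are precipitated RNA, so a higher level does not show more Igf2r RNA in the cells.

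The 3 Igf2r features with the highest mean all held exons. The largest (chr17:12682518-12684156, at the 3′ end) had 21.9, 24.4 and 30.0 CPM in the WT libraries, 20.6 and 28.1 in EZH2 KO, against 43.3 and 45.7 in SAFB DKO (0.81, SE 0.20, adjusted p = 0.0079). The others (chr17:12726205-12726850 and chr17:12698055-12698836) had a mean of 3.28 and 3.32 CPM in WT and of 7.59 and 6.47 in SAFB DKO. Of 39 tested exonic Igf2r features 5 rose and the other 34 had no call in SAFB DKO, at a median of 1.01, where 2.26% of all features rose. The log2 ratio of Airn to Igf2r counts was 1.92, 1.93 and 1.33 in WT, compared with 3.89 and 4.06 in both EZH2 KO clones and -2.84 and -2.53 in SAFB DKO. It differed from WT by -4.41 in SAFB DKO and 2.25 in EZH2 KO (exact two-sided permutation p = 0.10 each, adjusted 0.15).

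The other genes around Airn did not move as a block. Of 44 listed genes of the cluster and its flanks, 42 were annotated and 31 passed the filter. Against WT, 12 fell and 4 rose in SAFB DKO, at a median of -0.40, while 8 fell and 11 rose in EZH2 KO, at a median of 0.20; the shares over all genes tested are given above. Between the knockouts 14 were lower in SAFB DKO and 8 higher than in EZH2 KO, where 41.2% of all genes fell and 28.8% rose. Mas1, the receptor gene that overlaps the 3′ end of Airn on the other strand, had 1.10, 0.988 and 0.835 CPM in the WT libraries, 0 and 2.36 in EZH2 KO, against 0.411 and 0.323 in SAFB DKO, and was not called in either. Among neighbours with at least 5 CPM in WT, the largest falls in SAFB DKO were those of Rsph3a (-3.24, SE 0.36, adjusted p = 9.1e-06) and Rsph3b (-3.02, SE 0.26, adjusted p = 1.2e-06). Rsph3a and Rsph3b are near-identical copies that encode a radial spoke protein of cilia, so reads may be split between them. Tcp1, a chaperonin subunit downstream of Airn on the same strand, moved the other way, with 158, 160 and 180.5 CPM in the WT libraries, 43.4 and 66.7 in EZH2 KO, against 306 and 328 in SAFB DKO.

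Tcp1 rose in SAFB DKO (0.93, SE 0.16, adjusted p = 2.9e-04) and fell in EZH2 KO (-1.59, SE 0.17, adjusted p = 2.3e-05). Of the named neighbours, Rps6ka2, a ribosomal S6 kinase, fell in SAFB DKO (-1.30, SE 0.15, adjusted p = 1.2e-05) and rose in EZH2 KO (1.02, SE 0.14, adjusted p = 1.1e-04), from 164 ± 15.97 CPM in WT to 66.9 ± 5.95 and 332 ± 51.3.

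Among 9270 genes with a mean of at least 10 CPM, the patterns most like that of Airn over the 7 libraries belonged to Gm17690, Gm40040, B230217O12Rik, Gm28778 and 2310058D17Rik. Likeness was the root mean square difference of centred log2(CPM + 1) values, which was 0.12 for Gm17690 and 0.35 for 2310058D17Rik, against a median of 2.05 over the genes. Gm17690 (antisense RNA, chromosome 3) had 47.2, 40.8 and 35.1 CPM in WT, compared with 169 and 201 in both EZH2 KO clones and 3.51 and 3.44 in SAFB DKO. Gm40040 (lincRNA, chromosome 3) stood at 261, 269 and 174 CPM in the WT libraries, 691 and 837 in EZH2 KO, against 19.07 and 16.04 in SAFB DKO. By annotation 4 of the 5 are noncoding, and Gm28778 is listed as protein-coding. The share of noncoding genes among the 9270 is not given here, and the 5 genes rest on 1 (Gm28778) to 6 (B230217O12Rik) features each. Kcnq1ot1 ranked 109th and Igf2r 7683rd by the same measure.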

How the data were processed

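RNA precipitated with an EZH2 antibody was measured in 7 libraries of 3 groups. Counting was done by the authors in featureCounts 2.0.3 with the reverse-stranded setting, per the file headers, and the deposited values are raw counts per feature. Feature names say that the intervals were called on pooled WT precipitates; the build is mm10 per the submitters' processing notes, and the aligner and peak caller are not given in the sources used here. Value columns that match no sample, 3 in number, stayed out.

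Counts were tested with edgeR 4.0.16 (quasi-likelihood F-test, filterByExpr, group only) in R 4.3.3, all 7 libraries in 1 fit, over 192964 features and, summed over same-strand features of 1 gene (GENCODE M21), 16710 genes. TMM factors were computed on 170869 tested features, those the filtered list leaves out. A change is an adjusted p (Benjamini-Hochberg, over all features or genes) under 0.05. The script was tested on simulated data. Shares and ratios within libraries used exact permutation tests (scipy 1.17.1). The Airn sum holds all 33 rows, although feature 12 also overlaps Gm23833.

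Named were the 6 Airn features with the highest mean, the ends and extremes, the top 3 Igf2r features, Kcnq1ot1, Tsix, genes of the listed neighbourhood (1 is not reported here) and the 5 genes most alike. Members, lists and tests were chosen with earlier results of these data known. Alternatives were other scalings, filters, DESeq2 1.42.0, left-out libraries, other feature sets and the replicate number as a block. No replicates were duplicates by a chi-square comparison of counts. The motif search over features needs genome sequence and was not run.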

Additional observations from a re-analysis of the deposited data

How the results depend on the processing

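The fall of summed Airn in SAFB DKO, its rise in EZH2 KO and the difference between the knockouts kept their direction and passed the threshold under each alternative run: the log2 fold changes ranged from -4.25 to -2.82, from 1.77 to 2.12 and from -6.33 to -4.72. Counts of called features ranged from 22 to 27, from 18 to 25 and from 27 to 30. Scaling by column totals moved the median of all features by 0.22 in SAFB DKO and -0.25 in EZH2 KO. With the replicate block, EZH2 KO against WT gave 1.89 and 22 features that rose; same-numbered libraries correlated by 0.10 and 0.02 in their deviations, so the numbers were not taken as pairs, and SAFB DKO labels allow no block. The difference in the share of counts overlapping Igf2r between EZH2 KO and WT (-0.25 points) changed sign on leaving out WT replicate 3 (0.21) or EZH2 KO replicate 2 (1.05), with a range of -1.55 to 1.05 over left-out libraries; the cause was not tested. The sum without the feature shared with Gm23833, an alternative chosen after seeing the data, gave -3.53, 2.01 and -5.54. Tested features without a call in SAFB DKO had at most 0.792 CPM in WT; whether depth limits them was not tested.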

Other observations

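Igf2r features inside and outside the overlap with Airn differed in their values, but also in exon content. All 38 features beyond Airn hold exons, whereas 13 of the 15 opposite Airn are intronic. The 38 tested Igf2r features beyond Airn had a median log2 fold change of 1.01 for SAFB DKO against WT and -1.01 for EZH2 KO. In the 15 Igf2r features that lie opposite Airn, 8 were tested, with medians of -0.76 and 0.93, the signs that Airn itself had. The 7 intronic ones among them had medians of -0.79 and 0.93 in the same order. The exonic one (chr17:12748609-12748824; 7, 6 and 4 counts in WT) had log2 fold changes of 1.67 and 1.32, neither called. Position and exon content thus nearly coincide, and their separate parts in the difference were not tested. In SAFB DKO edgeR called 0 of the 8 (1 at an unadjusted p under 0.05, higher), and in EZH2 KO it called 1 as higher (1 at an unadjusted p under 0.05), where 7.5% of all features rose. That feature (chr17:12765760-12765976) rests on 1 library, with 48 and 1 counts in EZH2 KO and 15, 7 and 4 in WT. DESeq2 was not counted for these features. Leakage of counts between the strands was not tested.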
